A study of Mus musculus with 12 samples.

Results

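The glypicans and the syndecans, the membrane-bound heparan sulfate proteoglycans, were followed as transcripts across 4 sorted mouse bone and bone marrow populations. The members were taken by name, as the 6 glypican genes (Gpc1 to Gpc6) and the 4 syndecan genes (Sdc1 to Sdc4), and these 10 genes were found once each by gene identifier among the 49585 genes of the count tables. All cells came from wild-type male C57BL/6 mice aged 8 to 10 weeks at steady state. Each RNA-seq library held 2000 CD45-, Ter119- and CD31- cells, with 3 libraries for each population. Itga8+ MSCs (Itga8+Alcam+Sca-1-), Itga8-Alcam+ bone-lining cells (BLCs, given as osteoblasts in the sample labels) and Sca-1+ MSCs (Alcam-Sca-1+) were sorted from collagenase-digested fragments of femora, tibias and iliac bones. CD51+CD140a+ MSCs were sorted from flushed marrow of femora and tibiae digested with Accumax, so isolation and population cannot be told apart wherever these cells are compared with the others. How many mice stood behind a library was not given in the sources used here, and the tests below measure the spread between these libraries, which may be technical.

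Heparan sulfate proteoglycans carry long sulfated sugar chains on a core protein. The chains bind growth factors, morphogens, chemokines and matrix proteins at the cell surface and present them to receptors. Glypicans are held in the outer leaflet of the membrane by a lipid (GPI) anchor, whereas syndecans span the membrane, bind signalling and scaffold proteins with a short cytoplasmic tail, and are shed by metalloproteinases. In bone, both families are known to modulate Wnt, Hedgehog, FGF and BMP signalling, and in the marrow heparan sulfate on stromal cells takes part in holding haematopoietic cells and CXCL12.

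Promoter sequences from RefSeq (GRCm38.p6, the same build as the mm10 alignment) were used for 7 of the 10 genes. Sequences upstream of the start of Sdc1, Sdc3 and Gpc3 are printed because these genes reached their highest mean level in different populations, CD51+CD140a+ MSCs for Sdc1, the Alcam+ populations for Sdc3 and Sca-1+ MSCs for Gpc3. Capitals mark GGGCGG on either strand (written CCGCCC where it lies on the other strand), the GC box bound by Sp-family factors.
Sdc1, chr12:8771146-8771322, plus strand: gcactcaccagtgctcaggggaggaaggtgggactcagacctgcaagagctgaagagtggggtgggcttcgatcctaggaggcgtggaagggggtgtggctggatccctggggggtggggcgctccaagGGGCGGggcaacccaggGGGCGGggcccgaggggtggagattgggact
Sdc3, chr4:130792287-130792536, plus strand: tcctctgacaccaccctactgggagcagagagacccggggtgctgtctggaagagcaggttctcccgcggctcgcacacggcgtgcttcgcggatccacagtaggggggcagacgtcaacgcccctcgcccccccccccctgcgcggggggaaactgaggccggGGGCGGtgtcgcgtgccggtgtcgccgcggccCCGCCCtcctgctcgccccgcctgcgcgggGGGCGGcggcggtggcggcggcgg
Gpc3, chrX:52613975-52614224, minus strand: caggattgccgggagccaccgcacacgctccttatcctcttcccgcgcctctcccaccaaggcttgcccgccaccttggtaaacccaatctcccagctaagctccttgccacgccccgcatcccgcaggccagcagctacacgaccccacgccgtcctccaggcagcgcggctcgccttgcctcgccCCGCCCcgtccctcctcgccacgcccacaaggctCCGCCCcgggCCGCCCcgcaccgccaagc
The Sdc1 stretch stops at the annotated gene start and holds 2 matches, and the others hold 3 each. GGGCGG was present in the 250 bases before the RefSeq start of all 7 members with a promoter sequence and of 32.7% of the 32851 mouse promoters searched in the same way. The 250-base windows held 10 CG dinucleotides for Sdc1, 32 for Sdc3 and 25 for Gpc3, against a median of 6 over all promoters. A match describes these letters alone and says nothing of what binds there.

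Total counts ranged from 17580677 to 27574679 in the libraries from bone fragments and from 29652779 to 31332475 in those of CD51+CD140a+ MSCs. Levels are given as CPM (counts scaled to the library total) after TMM scaling, and levels of different genes are compared only as TPM, in which counts are first divided by exon length. Among the genes used for sorting, Itga8 was at 35.1 to 199 CPM in Itga8+ MSCs and at 0.398 to 4.17 CPM in Itga8-Alcam+ BLCs, but also at 53.1 to 82.9 CPM in CD51+CD140a+ MSCs. Alcam transcripts were low in both Alcam+ populations, at 1.29 to 5.81 CPM, and were at most 0.221 CPM in the others. Ly6a, which encodes Sca-1, was at 611 to 659 CPM in Sca-1+ MSCs and at most 35.7 CPM elsewhere. Pdgfra, which encodes CD140a, was at 681 to 867 CPM in CD51+CD140a+ MSCs and at 734 to 1019 CPM in Sca-1+ MSCs, and Itgav, which encodes CD51, overlapped between them at 121 to 195 CPM and 126 to 150.2 CPM and was at 12.7 to 118 CPM in the Alcam+ libraries.

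Libraries stood apart within both Alcam+ populations. Chondrocyte transcripts (6 genes, mostly Col2a1) summed to 70095, 10692 and 116106 CPM in Itga8+ libraries 1, 2 and 3 and to 41956, 72747 and 9944 CPM in Itga8-Alcam+ libraries 1, 2 and 3, against 524 to 1597 CPM in the other libraries. Itga8+ library 2 and Itga8-Alcam+ library 3, the lowest of their populations in these transcripts, also had the highest mitochondrial shares (0.546% and 0.359%, against at most 0.0996% elsewhere) and relatively few long transcripts. In them the median deviation from the population mean of transcripts of 5000 bases or more lay 1.83 and 1.20 log2 units below that of transcripts under 1500 bases. Osteoblast transcripts (7 genes) summed to 32133 to 114239 CPM in Itga8-Alcam+ BLCs and to 686 to 7973 CPM in Itga8+ MSCs, and LepR+ stromal transcripts (6 genes) summed to 44710 to 61164 CPM in CD51+CD140a+ MSCs and to at most 739 CPM elsewhere. Myeloid transcripts (8 genes) summed to 2308 to 11868 CPM in the Alcam+ libraries and to 885 to 1731 CPM in the others, and tendon transcripts (6 genes) to 12892 to 23544 CPM in Itga8+ MSCs, 3787 to 9349 CPM in Itga8-Alcam+ BLCs and Sca-1+ MSCs and at most 113 CPM in CD51+CD140a+ MSCs. Itga8+ library 2, the lowest of its population in Gpc1, Gpc4, Gpc6, Sdc1 and Sdc3 and of all 12 libraries in these members other than Gpc6, had the highest myeloid sum (11868 CPM) and an erythroid sum (5 genes) of 1139 CPM, against 95.2 to 319 CPM in every other library. The part of these transcripts in the levels of the members was not tested. In sorted bulk samples, fewer cells of a type and less RNA per cell cannot be told apart.

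Of the 10 genes, 8 were measured well enough to test, with reads in all 12 libraries. Gpc2 and Gpc5 were close to absent. Gpc5 had 2 reads in all, both in Itga8+ library 3, and Gpc2 had 13 reads spread over 4 libraries, at most 4 in any of them and none in Itga8+ MSCs. Where no read was counted, a count of 0 allowed a level of up to 0.0819 to 0.18 CPM (3 counts), depending on the library and covering counting error only. Over 55.6% of its exonic length Gpc2 also shares sequence with an overlapping gene model on the same strand, Gm43720, so its few reads are uncertain.

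Of the 8 tested members, 0 were called different between the Alcam+ populations and 4 to 6 in each of the other 5 comparisons. A gene was called different at an edgeR quasi-likelihood adjusted p (Benjamini-Hochberg over 18648 genes) under 0.1 and a fold change above 2. Between Itga8+ MSCs and Itga8-Alcam+ BLCs, the 0 calls stood beside a background in which 1.66% of all genes were called higher and 2.16% lower in Itga8+ MSCs, and 2 members had an unadjusted p under 0.05. DESeq2 and limma-trend each called 1 member there.
Against Sca-1+ MSCs, Itga8+ MSCs were higher in 4 members (Gpc1, Gpc6, Sdc3 and Sdc4; 12.9% of all genes were called higher) and lower in 2 (Gpc3 and Sdc2; 8.89% of all genes). Itga8-Alcam+ BLCs were higher in 4 members (14.5% of all genes) and lower in 2 (11.9% of all genes) against the same Sca-1+ libraries, with the same names in both directions.
Against CD51+CD140a+ MSCs, Itga8+ MSCs were higher in 3 members (Gpc1, Sdc3 and Sdc4; 21.2% of all genes) and lower in 2 (Gpc4 and Sdc1; 14.3% of all genes). Itga8-Alcam+ BLCs were higher in 4 members (Gpc1, Gpc3, Sdc3 and Sdc4; 20.4% of all genes) and lower in 1 (Sdc1; 14.9% of all genes). Sca-1+ MSCs were higher than CD51+CD140a+ MSCs in 1 member (Gpc3; 11.2% of all genes) and lower in 3 (Gpc4, Gpc6 and Sdc1; 9.3% of all genes). These comparisons share libraries and are given side by side.

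**Figure D1:**
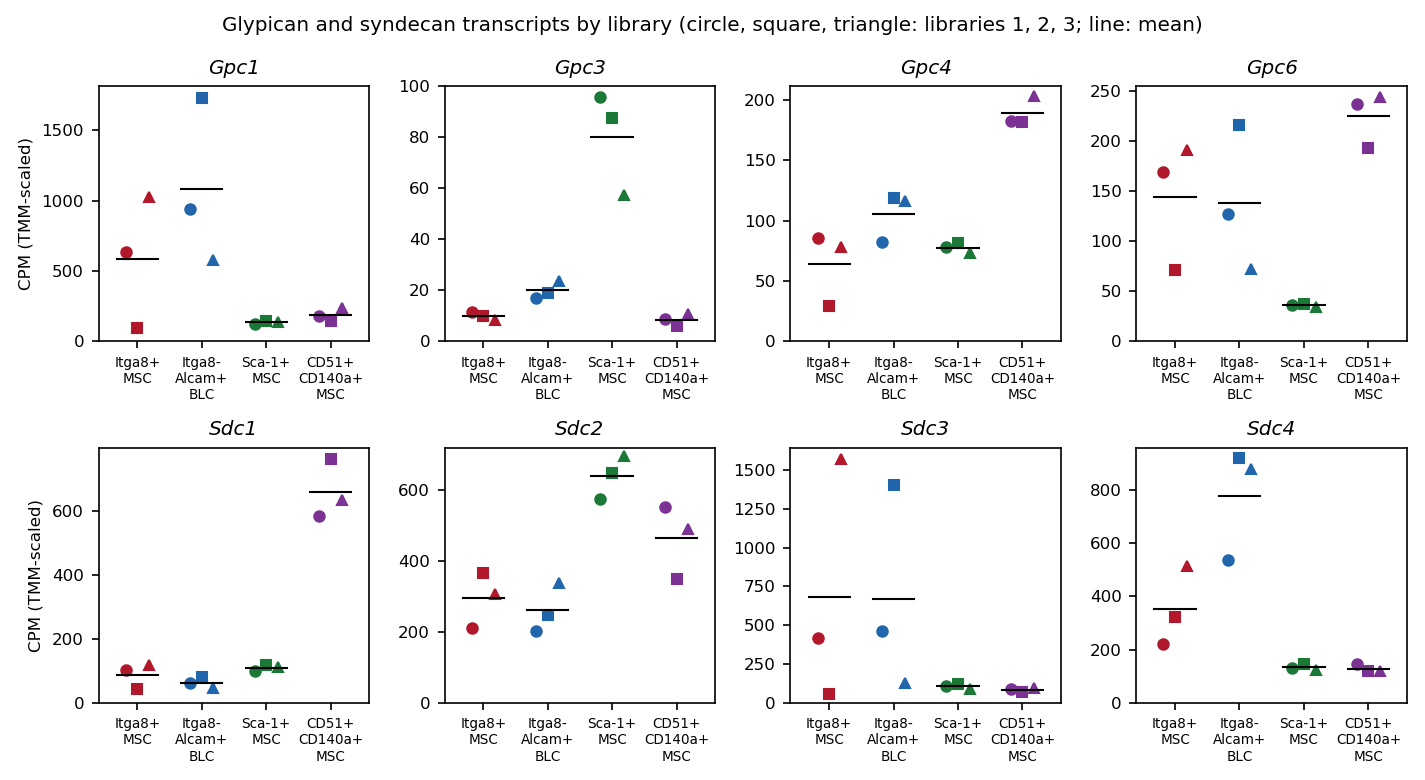
Level of each of the 8 tested members (y axis, TMM-scaled CPM) in the 4 populations (x axis), with 1 point for each library and a line at the mean. Gpc1, Sdc3 and Sdc4 had their highest means in the Alcam+ populations, Gpc3 and Sdc2 in Sca-1+ MSCs, and Gpc4, Gpc6 and Sdc1 in CD51+CD140a+ MSCs, while Itga8+ library 2 (square) was low for Gpc1 and Sdc3.

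Among the glypicans, Gpc1 was the most abundant transcript of both Alcam+ populations. Gpc1 lies on chr1:92831645-92860779 (plus strand) and encodes a glypican known for binding FGF2 and for modulating BMP and FGF signalling in bone. It was at 939, 1733 and 578 CPM in Itga8-Alcam+ BLC libraries 1, 2 and 3 and at 636, 97.3 and 1022 CPM in the Itga8+ MSC libraries. In Sca-1+ MSCs it was at 121, 146 and 139.6 CPM, and in CD51+CD140a+ MSCs at 176, 147 and 235 CPM. All 3 Itga8-Alcam+ libraries lay above every library of the latter populations, whereas Itga8+ library 2 lay below all of them. The mean fell from 1084 ± 591 CPM (SD, n = 3) in Itga8-Alcam+ BLCs to 585 ± 465 in Itga8+ MSCs, 186 ± 44.8 in CD51+CD140a+ MSCs and 135 ± 13.2 in Sca-1+ MSCs, and neighbours in this order were called different only between Itga8+ MSCs and CD51+CD140a+ MSCs. Itga8-Alcam+ BLCs exceeded Sca-1+ MSCs by a log2 fold change of 3.00 ± 0.673 (SE, adjusted p = 0.00877) and CD51+CD140a+ MSCs by 2.54 ± 0.66 (adjusted p = 0.0127). For Itga8+ MSCs the differences were 2.11 ± 0.649 (adjusted p = 0.0472) and 1.66 ± 0.64 (adjusted p = 0.07), and both calls were lost with limma-trend (adjusted p = 0.131 and 0.228), in fits of the compared populations alone (adjusted p = 0.113 and 0.145), with a replicate block (adjusted p = 0.114 and 0.132) and in some fits without 1 library. The former was lost, among these, without Itga8+ library 3 (1.42, adjusted p = 0.119) or any 1 of the Sca-1+ libraries (2.03 to 2.17, adjusted p = 0.126 to 0.137), and the latter without Itga8+ library 3 (1.00, adjusted p = 0.229), Itga8+ library 1 (1.59, adjusted p = 0.125) or any 1 of the CD51+CD140a+ libraries (1.51 to 1.86, adjusted p = 0.114 to 0.171). The exons of Gpc1 overlap those of Ankmy1 on the opposite strand over 18.9% of their length, and with no strand setting given the reads of the overlap cannot be assigned with certainty.

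Gpc3 and Gpc4 are neighbours on the X chromosome, yet their levels differed in order. Gpc3 (chrX:52272426-52613950, minus strand) encodes the glypican that restrains Hedgehog signalling and whose loss causes an overgrowth syndrome. It was at 95.6, 87.6 and 57.2 CPM in Sca-1+ MSCs, at 17.1, 19.1 and 23.8 CPM in Itga8-Alcam+ BLCs, at 11.4, 9.76 and 8.49 CPM in Itga8+ MSCs and at 8.66, 6.13 and 10.5 CPM in CD51+CD140a+ MSCs. Sca-1+ libraries lay above all others, and the Itga8-Alcam+ libraries above those of both remaining populations. Set against Sca-1+ cells, Gpc3 was lower by 3.02 ± 0.326 on the log2 scale in Itga8+ MSCs (adjusted p = 0.000169) and lower in Itga8-Alcam+ BLCs by 2.00 ± 0.313 (adjusted p = 0.00105), and it was higher in Sca-1+ than in CD51+CD140a+ MSCs by 3.25 ± 0.329 (adjusted p = 3.17e-05). Itga8-Alcam+ BLCs were above CD51+CD140a+ MSCs by 1.25 ± 0.308 (adjusted p = 0.00974), a call lost with library totals alone (0.89, adjusted p = 0.0508). Between the Alcam+ populations its fold of 2.02 in favour of Itga8-Alcam+ BLCs did not pass (log2 fold change -1.01 ± 0.307, adjusted p = 0.132), although the libraries did not overlap. An exact two-sided permutation test of 3 against 3 libraries cannot give a p below 0.1, which is the value for that comparison.

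Gpc4 (chrX:52053021-52165252, minus strand), a glypican that modulates Wnt and BMP signalling, was at 183, 182 and 203 CPM in CD51+CD140a+ MSCs. In Itga8-Alcam+ BLCs it was at 82.1, 119 and 116 CPM, in Sca-1+ MSCs at 78.5, 81.6 and 73 CPM and in Itga8+ MSCs at 85.3, 29.2 and 78.1 CPM. The CD51+CD140a+ libraries lay above all 9 others. Below the CD51+CD140a+ level, Gpc4 was lower by 1.56 ± 0.358 on the log2 scale for Itga8+ MSCs (adjusted p = 0.00695) and by 1.28 ± 0.356 for Sca-1+ MSCs (adjusted p = 0.0264). The fold of 1.79 against Itga8-Alcam+ BLCs stayed under the fold threshold (adjusted p = 0.091), which library totals alone passed (-1.22, adjusted p = 0.0234), and neighbours in the order of means were not called different.

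Gpc5 and Gpc6 are neighbours on chromosome 14, the former all but unread and the latter read in every library. Gpc6 (chr14:116925315-117976544, plus strand), mutated in a human skeletal dysplasia with short limbs, was at 237, 193 and 244 CPM in CD51+CD140a+ MSCs and at only 36, 37.3 and 33.7 CPM in Sca-1+ MSCs. In Itga8+ MSCs it was at 169, 70.9 and 191 CPM, and in Itga8-Alcam+ BLCs at 127, 216 and 71.6 CPM. Sca-1+ MSCs thus held the lowest 3 libraries, and the Alcam+ populations overlapped. Against Sca-1+ MSCs, Gpc6 was higher in Itga8+ MSCs 4.03-fold (SE 0.431 on the log2 scale, adjusted p = 0.00909) and in Itga8-Alcam+ BLCs 3.88-fold (SE 0.43, adjusted p = 0.00794), and Sca-1+ MSCs were below CD51+CD140a+ MSCs with a value of -2.66 ± 0.441 (adjusted p = 0.00112). The Alcam+ populations and CD51+CD140a+ MSCs were not called different (folds of 1.57 and 1.62, adjusted p = 0.252 and 0.221). Itga8-Alcam+ BLCs were called lower than CD51+CD140a+ MSCs without Itga8-Alcam+ library 2 (-1.18, adjusted p = 0.0563), without both libraries 2 (-1.18, adjusted p = 0.00419) and with library totals alone in place of TMM (-1.07, adjusted p = 0.0676).

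Per exon length, the make-up of the glypican family differed between the populations. Gpc1 held 61.6% ± 17.3 (SD, n = 3) of the summed glypican TPM in Itga8+ MSCs and 73.2% ± 8.35 of that in Itga8-Alcam+ BLCs, and it was the first glypican in all 6 of these libraries. In Sca-1+ MSCs the sum was shared by Gpc3 (32.4% ± 5.84), Gpc4 (32.3% ± 1.39) and Gpc1 (29.1% ± 4.26), whose ranges overlapped. In CD51+CD140a+ MSCs Gpc4 came first in every library (49.3% ± 3.29), followed by Gpc1 (24.5% ± 2.96) and Gpc6 (24.1% ± 1.45). The summed glypican level was 861 ± 497 TPM in Itga8-Alcam+ BLCs, 600.4 ± 443 in Itga8+ MSCs, 585 ± 73 in CD51+CD140a+ MSCs and 339 ± 37.5 in Sca-1+ MSCs. These shares were not tested. They depend on the division by length, and without it Gpc6 came first in all CD51+CD140a+ libraries and Gpc1 in all Sca-1+ libraries.

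Among the syndecans, Sdc1 had its highest level in the marrow cells. Sdc1 (chr12:8771323-8793715, plus strand) encodes CD138, the epithelial and plasma cell syndecan. It was at 583, 762 and 634 CPM in CD51+CD140a+ MSCs, against 99.7, 117 and 111 CPM in Sca-1+ MSCs, 101, 43.5 and 117 CPM in Itga8+ MSCs and 61.9, 79.8 and 45.2 CPM in Itga8-Alcam+ BLCs. The lowest CD51+CD140a+ library thus exceeded every other library, while the Itga8+ libraries overlapped those of both other populations. Sca-1+ MSCs and Itga8-Alcam+ BLCs did not overlap but were not called different (log2 fold change -0.81, adjusted p = 0.124). Itga8-Alcam+ BLCs were called lower without Itga8-Alcam+ library 2 (-1.07, adjusted p = 0.0779), without both libraries 2 (-1.03, adjusted p = 0.005) and with library totals alone (-1.02, adjusted p = 0.0646). Between the Alcam+ populations the log2 fold change was 0.49 ± 0.351 (adjusted p = 0.689), and 1.06 without both libraries 2, a call (adjusted p = 0.0247). Sdc1 was lower than in CD51+CD140a+ MSCs by 2.92 ± 0.376 on the log2 scale in Itga8+ MSCs (adjusted p = 0.000154), by 3.40 ± 0.385 in Itga8-Alcam+ BLCs (adjusted p = 5.99e-05) and by 2.60 ± 0.371 in Sca-1+ MSCs (adjusted p = 0.000374). Per exon length it was the first syndecan of CD51+CD140a+ MSCs on average, at 694 ± 70.6 TPM, beside Sdc2 at 533 ± 149 TPM. Plasma cell markers were near 0, with 5 of 6 markers under 1 CPM in all CD51+CD140a+ libraries, Jchain and Tnfrsf17 among them, and a sum of 0.344 to 1.04 CPM there against 1.37 to 7.11 CPM elsewhere. LepR+ stromal transcripts were also highest in CD51+CD140a+ MSCs, as given above, and their part in the difference was not tested.

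Sdc2 (chr15:32920723-33034935, plus strand), the mesenchymal syndecan once named fibroglycan, was at 573, 648 and 694 CPM in Sca-1+ MSCs and at 552, 349 and 490.1 CPM in CD51+CD140a+ MSCs. It was at 211, 364 and 306 CPM in Itga8+ MSCs and at 203, 246 and 337 CPM in Itga8-Alcam+ BLCs. Sca-1+ libraries were above all others, and no neighbouring populations in the order of means were called different. Against Sca-1+ cells, Sdc2 was lower by 1.12 ± 0.299 on the log2 scale in Itga8+ MSCs (adjusted p = 0.0264) and by 1.29 ± 0.3 in Itga8-Alcam+ BLCs (adjusted p = 0.0107). Without Itga8+ library 1 the first of these fell under the fold threshold (-0.93, adjusted p = 0.0876), and Sdc2 was also called lower in Itga8-Alcam+ BLCs than in CD51+CD140a+ MSCs without Itga8-Alcam+ library 3 (-1.05, adjusted p = 0.0327) or with library totals alone (-1.20, adjusted p = 0.00751). Over the 12 libraries, from 203 to 694 CPM, Sdc2 had the smallest ratio of highest to lowest level among the 8 tested members, and it was the first syndecan per exon length in every Sca-1+ library (64.7% ± 3.07 of the summed syndecan TPM).

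Sdc3 (chr4:130792537-130826319, plus strand), the neural syndecan that also appears in cartilage and binds pleiotrophin, varied within the Alcam+ populations more than any other member. Its highest library was 27.3 times the lowest in Itga8+ MSCs and 10.9 times in Itga8-Alcam+ BLCs, against 1.37 and 1.41 times in Sca-1+ and CD51+CD140a+ MSCs. It was at 418, 57.5 and 1569 CPM in Itga8+ libraries 1, 2 and 3 and at 463, 1405 and 129 CPM in the Itga8-Alcam+ libraries. In Sca-1+ MSCs it was at 109, 121 and 88.7 CPM, and in CD51+CD140a+ MSCs at 86.7, 68.6 and 96.7 CPM. Itga8+ library 2 thus had the lowest Sdc3 of all libraries and Itga8+ library 3 the highest. The Itga8-Alcam+ libraries lay above those of Sca-1+ and CD51+CD140a+ MSCs. Between the Alcam+ populations the log2 fold change was 0.03 ± 0.91 (adjusted p = 1), which became 1.76 without both libraries 2, a call (adjusted p = 0.092), and -1.47 without Itga8+ library 3 (adjusted p = 0.482). Itga8+ MSCs were above Sca-1+ MSCs by 2.68 ± 0.969 (adjusted p = 0.0809) and above CD51+CD140a+ MSCs by 3.02 ± 0.983 (adjusted p = 0.0373), and Itga8-Alcam+ BLCs by 2.65 ± 0.968 (adjusted p = 0.071) and 2.99 ± 0.981 (adjusted p = 0.0378). These calls rested on few libraries. Both calls against Sca-1+ MSCs were lost with a replicate block (adjusted p = 0.179 and 0.126) and with limma-trend (adjusted p = 0.259 and 0.154), which also lost that of Itga8+ against CD51+CD140a+ MSCs (adjusted p = 0.146), and the Itga8+ call against Sca-1+ MSCs was lost in a fit of these populations alone (adjusted p = 0.128). Without Itga8+ library 3 the Itga8+ values were 1.14 (adjusted p = 0.323) and 1.52 (adjusted p = 0.171), and without Itga8-Alcam+ library 2 the Itga8-Alcam+ values were 1.44 (adjusted p = 0.268) and 1.82 (adjusted p = 0.147). Both calls against Sca-1+ MSCs were also lost without any 1 of the Sca-1+ libraries (adjusted p = 0.156 to 0.2) or without Itga8-Alcam+ library 1 (adjusted p = 0.105 and 0.109), the Itga8+ call in addition without CD51+CD140a+ library 1 or 3 (adjusted p = 0.104 and 0.103), and both calls against CD51+CD140a+ MSCs without CD51+CD140a+ library 2 (adjusted p = 0.106 and 0.109). Opposite strand gene models cover 7.73% of its exonic length.

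Sdc4 (chr2:164424247-164443887, minus strand), the focal adhesion syndecan that binds protein kinase C alpha, was high in the same populations as Sdc3 with less spread. It was at 537, 919.5 and 879 CPM in Itga8-Alcam+ BLCs and at 221, 323 and 513 CPM in Itga8+ MSCs. Sca-1+ MSCs held it at 132, 145 and 122 CPM, and in CD51+CD140a+ MSCs at 147, 118 and 119 CPM. All 6 Alcam+ libraries lay above the other 6, and the Itga8-Alcam+ libraries lay above the Itga8+ libraries by a narrow gap. Itga8-Alcam+ BLCs exceeded Sca-1+ MSCs by a log2 fold change of 2.55 ± 0.344 (adjusted p = 0.00042) and CD51+CD140a+ MSCs by 2.60 ± 0.345 (adjusted p = 0.000181). Itga8+ MSCs exceeded them by 1.40 ± 0.331 (adjusted p = 0.0145) and 1.46 ± 0.332 (adjusted p = 0.00658), the former falling to 0.98 without Itga8+ library 3. The difference between the Alcam+ populations, a log2 fold change of -1.14 ± 0.329, missed the threshold (adjusted p = 0.11), and it was called by DESeq2, by limma-trend, with a filter of 10 counts in 3 libraries, and without Itga8+ library 3 or Itga8-Alcam+ library 1 (-1.52 and -1.34, adjusted p = 0.0315 and 0.0896). Sdc4 held the largest mean share of the summed syndecan TPM in Itga8-Alcam+ BLCs (61.2% ± 10.4) and in Itga8+ MSCs (40.3% ± 8.9), although Sdc3 came first in Itga8+ library 3. The latter rank depends on the division by length, and without it the mean share in Itga8+ MSCs was 38% for Sdc3 and 28.2% for Sdc4.

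**Figure D2:**
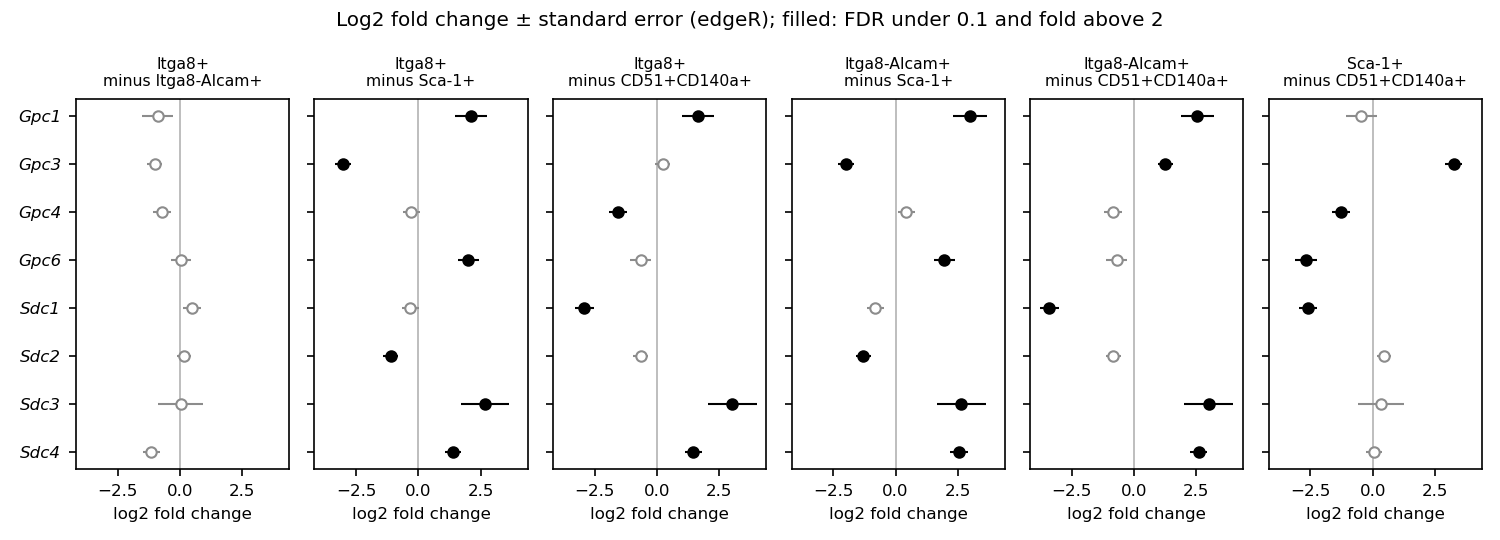
Log2 fold change of each tested member (x axis, first population minus second, bars are standard errors) in the 6 comparisons, with filled points for calls at an adjusted p under 0.1 and a fold above 2. No point is filled between the Alcam+ populations, and the bars of Sdc3 are the longest.

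The summed syndecan level was 1513 ± 646 TPM in Itga8-Alcam+ BLCs, 1487 ± 150.2 TPM for CD51+CD140a+ MSCs, 1244 ± 819.7 TPM for Itga8+ MSCs and 1039 ± 53.1 TPM for Sca-1+ MSCs. Sdc1 held 47.1% ± 8.13 of it in CD51+CD140a+ MSCs and 3.35% ± 1.03 to 10.2% ± 0.231 elsewhere. Sdc3 ranged from 3.82% to 45.1% among the Itga8+ libraries and from 4.53% to 34.2% among the Itga8-Alcam+ libraries, and Sdc2 held 14.9% to 41.1% in the former.

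**Figure D3:**
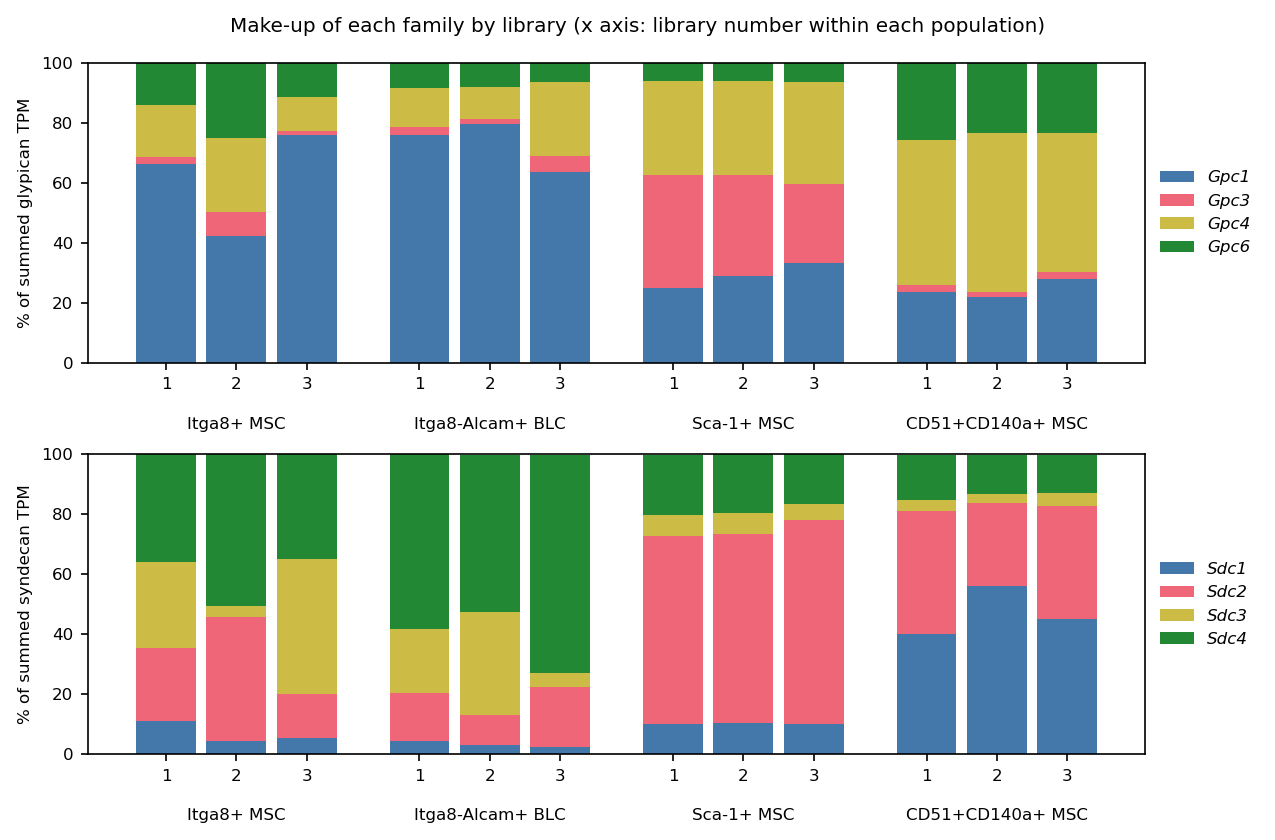
Share of each member in the summed TPM of its family (y axis, percent) in each of the 12 libraries (x axis, numbered within each population), glypicans above and syndecans below. Gpc1 and Sdc4 fill most of the Itga8-Alcam+ bars, Sdc2 most of the Sca-1+ bars, and Gpc4 and Sdc1 make the largest mean shares in CD51+CD140a+ MSCs.

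Members differed in how closely their levels followed the chondrocyte transcripts among the Alcam+ libraries. Over the 6 Alcam+ libraries, Pearson's r between log2 levels and the chondrocyte sum was 0.97 for Gpc6, 0.96 for Sdc1, 0.93 for Sdc3, 0.72 for Gpc1, 0.39 for Gpc4, -0.09 for Sdc4, -0.34 for Gpc3 and -0.60 for Sdc2. Sums of other marker lists varied with members as well. Gpc1 had an r of 0.90 with the LepR+ stromal sum and 0.86 with the osteoblast sum, Sdc3 had 0.92 with the LepR+ stromal sum, Gpc4 had 0.86 with the osteoblast sum and Gpc3 had -0.97 with the tendon sum. Both populations were pooled for these values without removing their means, and their osteoblast and tendon sums did not overlap. The values therefore also hold the difference between the populations. The same 6 libraries also differ in long-transcript content and mitochondrial share, so these values describe libraries that share several properties. The part of chondrocyte or other RNA in the levels was not tested. Leaving out Itga8+ library 2 and Itga8-Alcam+ library 3 together, an alternative chosen after seeing the data, kept all 26 member calls of the 6 comparisons and added 1, Sdc2 lower in Itga8-Alcam+ BLCs than in CD51+CD140a+ MSCs.

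**Figure D4:**
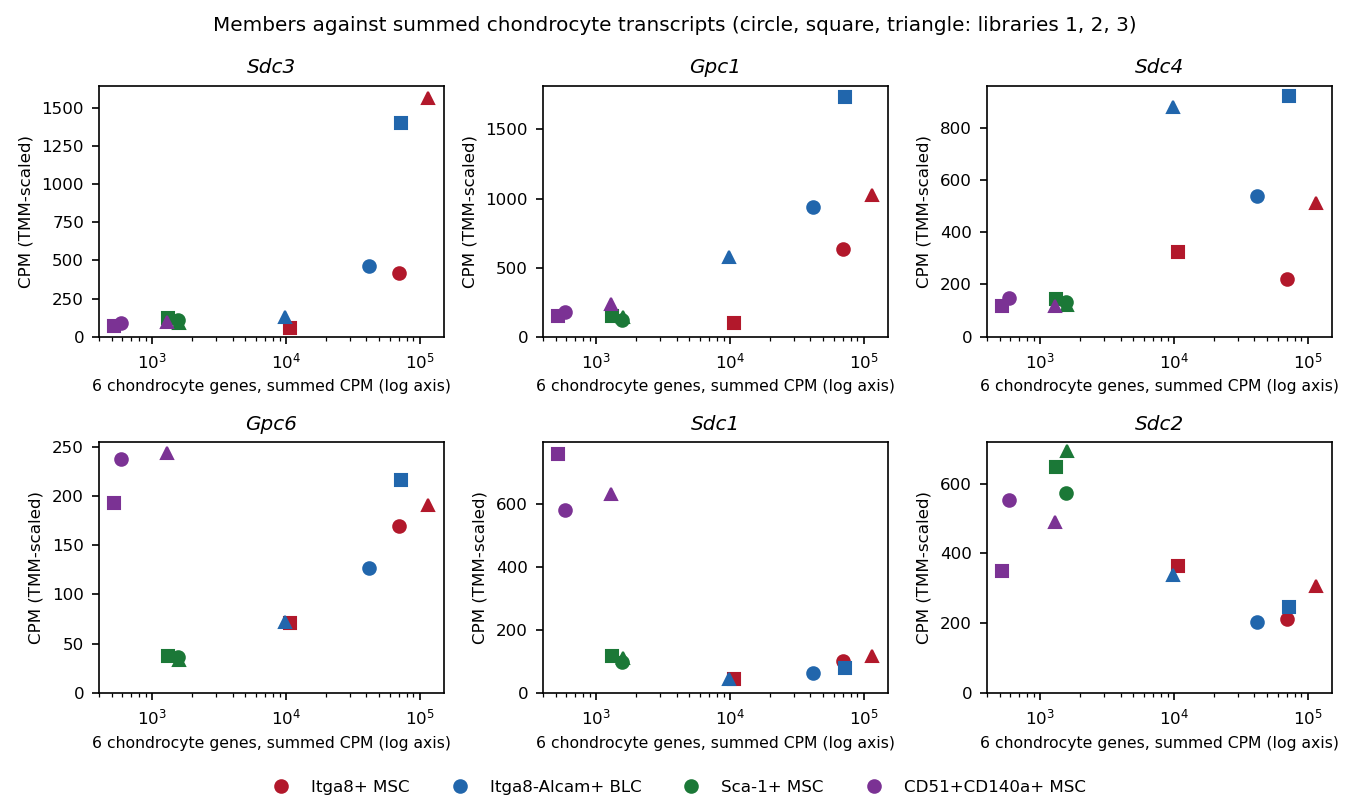
Level of 6 members (y axis, TMM-scaled CPM) against the summed CPM of 6 chondrocyte genes (x axis, log scale) in the 12 libraries. Among the 6 Alcam+ libraries (red and blue), Sdc3 and Gpc6 are low in the pair with the lowest chondrocyte sums, whereas Sdc4 is high in Itga8-Alcam+ library 3 (blue triangle) despite its low chondrocyte sum.

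Over all 12 libraries, the transcripts whose log2 levels followed each member most closely were named by the highest Pearson's r among 11448 genes. For Sdc1 they were Arrdc4 (r = 0.994) and Itga1 (r = 0.990), for Gpc6 Tnfrsf21 (r = 0.984) and Spon1 (r = 0.963), and for Gpc4 Igf2bp2 (r = 0.977) and Zfp281 (r = 0.964). Gpc3 was closest to Efcc1 (r = 0.985) and Tubb4a (r = 0.981), and Sdc2 to Syap1 (r = 0.974) and Dnase2a (r = 0.960). Gpc1 was closest to Clint1 (r = 0.972) and Fkbp9 (r = 0.964), and Sdc4 to Col13a1 (r = 0.978) and Slc2a1 (r = 0.973). For Sdc3 the first was Gm26716 (r = 0.992), an antisense model that lies opposite Sdc3 exons and whose reads cannot be told apart from those of Sdc3 without strand, and the next Scd2 (r = 0.967). Among the members themselves, Gpc1 and Sdc3 were most alike (r = 0.91), and Gpc3 and Gpc6 most opposed (r = -0.86).

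Enzymes that build heparan sulfate chains were called in both directions. Of 12 genes for chain initiation and elongation, Itga8+ MSCs had 4 higher and 0 lower against Sca-1+ MSCs (12.9% and 8.89% of all genes, median log2 fold change 0.61 against 0.16 over all genes), and 4 higher and 3 lower against CD51+CD140a+ MSCs (21.2% and 14.3%, median 0.39 against 0.18). Itga8-Alcam+ BLCs were higher in 5 and lower in 1 than Sca-1+ MSCs (14.5% and 11.9%, median 0.63 against 0.12). Extl1, a glycosyltransferase of the exostosin family, was at 159.5, 34.4 and 124 CPM in Itga8+ MSCs, at 51.2, 66.4 and 27.1 CPM in Itga8-Alcam+ BLCs and at no more than 7.07 CPM in any other library. Its log2 fold change between Itga8+ and Sca-1+ MSCs was 5.06 ± 0.81 (adjusted p = 0.00168). B4galt7, which adds the first galactose of the linker shared by all chains, exceeded its Sca-1+ level in Itga8+ MSCs by a log2 fold change of 1.61 ± 0.251 (adjusted p = 0.00142). Extl3, which starts the heparan sulfate chain on that linker, was highest in CD51+CD140a+ MSCs instead, at 111, 90.7 and 91.8 CPM, and was at 4.4, 4.41 and 26.2 CPM in Itga8+ MSCs (log2 fold change -3.07 ± 0.688, adjusted p = 0.00608). The xylosyltransferases that begin the linker were divided, with Xylt1 higher (2.99 ± 0.669, adjusted p = 0.006) and Xylt2 lower (-1.61 ± 0.534, adjusted p = 0.0402; -1.42 and 0.117 without CD51+CD140a+ library 3, -1.62 and 0.101 in a fit of these populations alone) in Itga8+ than in CD51+CD140a+ MSCs.

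Of 16 modification enzymes, 13 were tested. In Itga8+ MSCs 5 were higher and 1 lower than in Sca-1+ MSCs (12.9% and 8.89% of all genes), and 5 were higher and 0 lower than in CD51+CD140a+ MSCs (21.2% and 14.3%). In Itga8-Alcam+ BLCs 4 were higher in either comparison, with 1 lower than in Sca-1+ MSCs (14.5% and 11.9%) and 0 lower than in CD51+CD140a+ MSCs (20.4% and 14.9%). In each of these counts of higher enzymes, Hs3st3a1 and Hs3st3b1 were the only enzymes above 2.6 CPM in any library of the higher population. The rest (Hs6st2, Hs3st5 and Hs3st6 against Sca-1+ MSCs, and Ndst3, Hs3st2 and Hs3st6 against CD51+CD140a+ MSCs, named after their values were seen) were low, with 0 to 3 reads summed over the lower population. Hs3st3a1 and Hs3st3b1 place the rare 3-O-sulfate. Hs3st3b1 was at 38.5, 5.76 and 60.9 CPM in Itga8+ MSCs, at 30.9, 61.5 and 9.65 CPM in Itga8-Alcam+ BLCs and at most 2.71 CPM in the other populations, with log2 fold changes of 3.96 ± 0.883 for Itga8+ against Sca-1+ MSCs (adjusted p = 0.0109) and 3.92 ± 0.882 for Itga8-Alcam+ BLCs against them (adjusted p = 0.00891). Hs3st1, which places the same sulfate, was instead at 18.8, 18.4 and 19.6 CPM in Sca-1+ MSCs and at most 4.55 CPM elsewhere (log2 fold change -2.61 ± 0.888 for Itga8+ against Sca-1+ MSCs, adjusted p = 0.0676). The libraries did not overlap, and the call was lost without any 1 of the Sca-1+ libraries (-2.63 to -2.58, adjusted p = 0.135 to 0.14) or without Itga8+ library 1 or 3 (-2.72 and -2.44, adjusted p = 0.128 and 0.1). A replicate block lost the call as well (-2.60, adjusted p = 0.127). Itga8+ library 2 was again the lowest of its population in Hs3st3a1 and Hs3st3b1.

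Among 15 genes for extracellular editing and release, of which 14 were tested, Itga8+ MSCs were higher in 1 and lower in 4 against Sca-1+ MSCs (12.9% and 8.89% of all genes, median -0.93 against 0.16 over all genes) and higher in 3 and lower in 3 against CD51+CD140a+ MSCs (21.2% and 14.3%, median -0.08 against 0.18), the count higher being near the share of all genes. Notum, a secreted hydrolase that removes the lipid of Wnt proteins and binds glypicans, was at 139, 75 and 105 CPM in Itga8+ MSCs and at 176, 190.2 and 126 CPM in Itga8-Alcam+ BLCs. It was at 5.53 to 9.71 CPM in Sca-1+ MSCs and at most 0.847 CPM in CD51+CD140a+ MSCs. Against Sca-1+ MSCs its log2 fold change was 3.83 ± 0.734 in Itga8+ MSCs (adjusted p = 0.00491) and 4.46 ± 0.756 in Itga8-Alcam+ BLCs (adjusted p = 0.00175). The endosulfatases Sulf1 and Sulf2, which remove 6-O-sulfates outside the cell, were highest in Sca-1+ MSCs, at 452 to 554 CPM for Sulf1 and 357 to 482 CPM for Sulf2. Compared with these cells, Sulf1 was lower by 4.85 ± 0.766 and Sulf2 by 3.39 ± 0.581 on the log2 scale in Itga8-Alcam+ BLCs (adjusted p = 0.00112 and 0.00188).
Proteases of the list included Adamts1, Mmp2 and Adam10. Adamts1 was at 2128 to 3057 CPM in CD51+CD140a+ MSCs and at 32.9 to 723 CPM in the other populations (log2 fold change -3.96 ± 0.793 for Itga8+ MSCs, adjusted p = 0.00312), whereas Mmp2 was at 65.9 to 100.1 CPM there and at 1304 to 3857 CPM elsewhere (4.85 ± 0.425 for Itga8+ MSCs, adjusted p = 1.03e-05). Adam10 in Itga8+ MSCs lay below its Sca-1+ level (log2 fold change -2.31 ± 0.492, adjusted p = 0.00878).

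**Figure D5:**
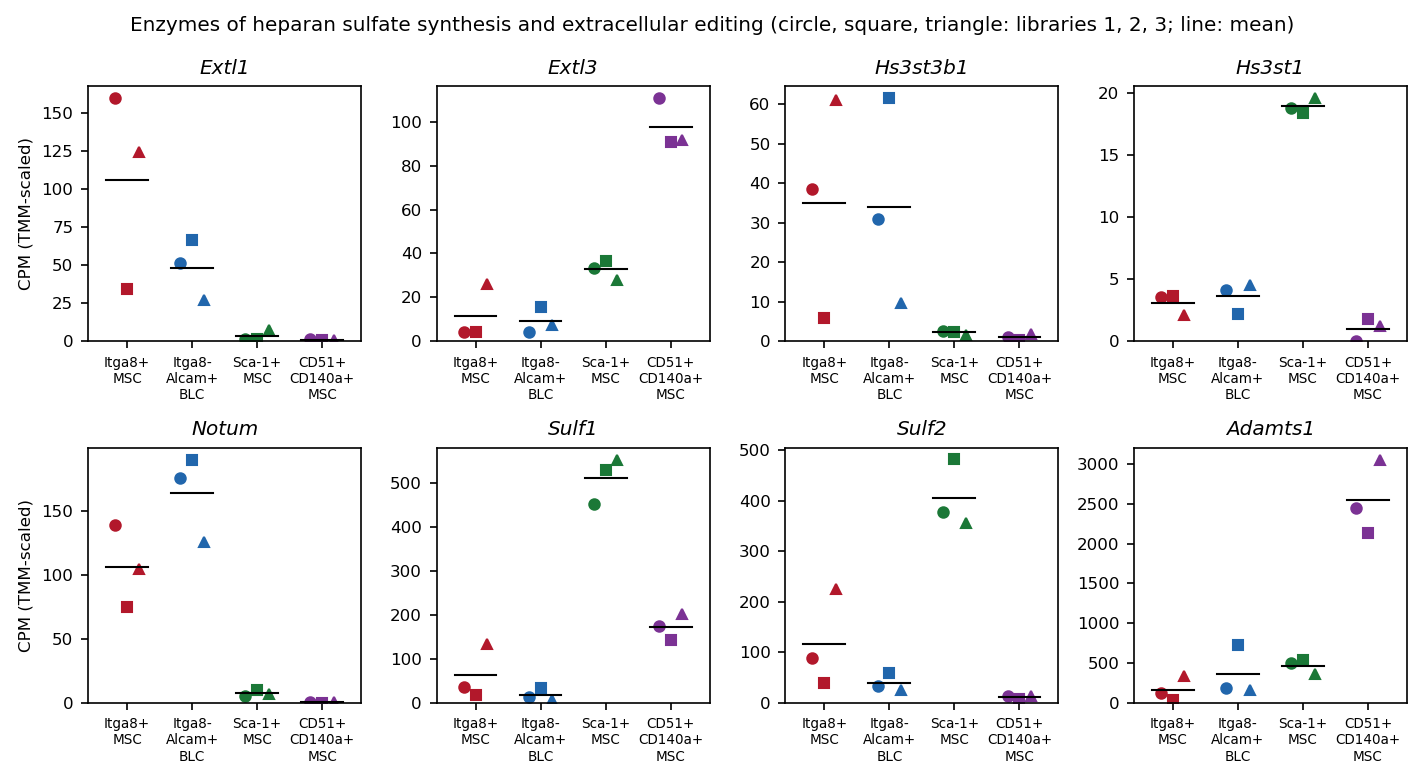
Level of 8 enzymes from the lists of heparan sulfate synthesis, modification and extracellular editing (y axis, TMM-scaled CPM) in the 4 populations (x axis), with 1 point for each library and a line at the mean. Extl1, Hs3st3b1 and Notum have their highest means in the Alcam+ populations, Hs3st1, Sulf1 and Sulf2 in Sca-1+ MSCs, and Extl3 and Adamts1 in CD51+CD140a+ MSCs.

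The counts of called genes among the 10 cytoplasmic partners of syndecans were near the shares of all genes. Itga8+ MSCs were higher in 1 and lower in 1 against Sca-1+ MSCs (12.9% and 8.89% of all genes, median 0.31 against 0.16 over all genes) and higher in 2 and lower in 0 against CD51+CD140a+ MSCs (21.2% and 14.3%, median 0.49 against 0.18). Itga8-Alcam+ BLCs were higher in 0 and lower in 1 against Sca-1+ MSCs (14.5% and 11.9%, median 0.17 against 0.12) and higher in 3 and lower in 0 against CD51+CD140a+ MSCs (20.4% and 14.9%, median 0.23 against 0.09). Prkca, the kinase bound by the tail of syndecan-4, had its highest mean in Sca-1+ MSCs, at 58.9, 68.9 and 52 CPM, and was lower in Itga8+ MSCs (-1.72 ± 0.61, adjusted p = 0.0764) and in Itga8-Alcam+ BLCs (-1.73 ± 0.61, adjusted p = 0.0629). Without any 1 of the Sca-1+ libraries both calls were lost (adjusted p = 0.108 to 0.18), as was the former without Itga8+ library 1 or 2 (adjusted p = 0.103 and 0.117) and the latter without Itga8-Alcam+ library 3 (adjusted p = 0.163). The Itga8+ call was also lost with a replicate block (adjusted p = 0.121), in a fit of the compared populations alone (0.112) and without both libraries 2 (0.11).

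Other heparan sulfate core proteins were called in both directions. Of 10 genes, Itga8+ MSCs had 6 higher and 3 lower against CD51+CD140a+ MSCs (21.2% and 14.3% of all genes, median 2.17 against 0.18 over all genes), and 3 higher and 1 lower against Sca-1+ MSCs (12.9% and 8.89%, median 0.57 against 0.16). Spock3, a secreted testican, was the 1 core protein called between the Alcam+ populations, at 18.3, 46.7 and 47.9 CPM in Itga8+ MSCs and 0.599 to 1.53 CPM in Itga8-Alcam+ BLCs (log2 fold change 5.33 ± 0.708, adjusted p = 0.00312). It was at most 0.111 CPM in the other populations. The part-time proteoglycans Tgfbr3 and Nrp1, co-receptors for TGF-beta and for VEGF and semaphorins, were highest beside Sdc1 in CD51+CD140a+ MSCs, at 868 to 873 CPM and 851 to 1146 CPM. Nrp1 was lower than in these cells by 3.93 ± 0.475 in Itga8+ MSCs and by 3.02 ± 0.456 in Sca-1+ MSCs on the log2 scale (adjusted p = 9.58e-05 and 0.000555).

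Of 19 ligands that bind heparan sulfate, 18 were tested, and 2 were higher and 1 lower in Itga8+ MSCs than in Itga8-Alcam+ BLCs (1.66% and 2.16% of all genes). Ptn, which encodes the Sdc3 ligand pleiotrophin, was at 55.1, 203 and 71.9 CPM in Itga8+ MSCs and at 16.7, 11.5 and 28.2 CPM in Itga8-Alcam+ BLCs (log2 fold change 2.55 ± 0.518, adjusted p = 0.0214). Fgf18, a growth factor of cartilage and bone, was also higher (2.47 ± 0.507, adjusted p = 0.0222), and Bmp2 was lower (-2.33 ± 0.476, adjusted p = 0.0217). Ptn and Bmp2 were not called in a fit of these populations alone (adjusted p = 0.151 and 0.183). Against Sca-1+ MSCs, Itga8+ MSCs were higher in 2 ligands and lower in 6 (12.9% and 8.89% of all genes, median -0.97 against 0.16 over all genes), and Itga8-Alcam+ BLCs were higher in 4 and lower in 7 (14.5% and 11.9%, median -1.14 against 0.12).
Cxcl12, the chemokine that retains haematopoietic stem cells, was at 34975 to 50648 CPM in CD51+CD140a+ MSCs and at 137 to 501 CPM elsewhere (log2 fold change -7.56 ± 0.515 for Itga8-Alcam+ BLCs, adjusted p = 1.82e-06). Fgf7 and Tnc were also highest there, at 199 to 246 CPM and 8821 to 9903 CPM. Hbegf, which binds heparan sulfate through the domain that names it, was at 479.9 to 1256 CPM in the Alcam+ populations, at 159 to 215 CPM in Sca-1+ MSCs and at 2.21 to 4.78 CPM in CD51+CD140a+ MSCs. Fgf10 was read at 9.79 to 11.5 CPM in Sca-1+ MSCs and at most 0.173 CPM in the other populations. Against CD51+CD140a+ MSCs, Itga8+ MSCs were higher in 5 ligands and lower in 6 (21.2% and 14.3% of all genes, median -0.13 against 0.18 over all genes), Itga8-Alcam+ BLCs higher in 5 and lower in 6 (20.4% and 14.9%, median 0.64 against 0.09), and Sca-1+ MSCs higher in 6 and lower in 6 (11.2% and 9.3%, median 0.53 against -0.00256).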

How the data were processed

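Poly(A)-primed RNA from 2000 sorted cells per library was amplified with SMART-Seq v4, a kit that does not keep strand, and sequenced from Nextera XT libraries. Raw read counts per gene were deposited by the authors, 1 table per library. Per the labels, the submitters' processing notes name FastQC 0.11.7, Trimmomatic 0.38, HISAT2 2.1.0, SAMtools 1.9 and featureCounts 1.6.3 with mm10, whereas the methods of the study name TopHat and Bowtie2 for mapping. The annotation release and strand setting were not given in the sources used here. Of 49585 gene identifiers, 49326 were matched to GENCODE M21, from which symbols and exon lengths were taken. Promoters came from RefSeq.

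Groups followed the labels. Genes reaching 0.5 CPM in 1 library or more were fitted over all 12 libraries with edgeR 4.0.16 (TMM, quasi-likelihood, R 4.3.3), tested for 6 comparisons, and called at a Benjamini-Hochberg adjusted p under 0.1 and a fold above 2. The script was tested on simulated data. Standard errors were derived from the quasi-likelihood F. CPM uses TMM-scaled totals and TPM the union of exons. The members and the gene lists were chosen with earlier results of these data known. Besides the members, the text names genes called in a comparison, at 10 CPM or more in the higher population and among the 2 largest changes of their list in either direction, the genes used for sorting, and the 2 genes most similar to each member (log2(CPM + 1)). Outside this rule it names some marker genes, overlapping gene models, and low modification enzymes that were picked after their values were seen. Alternatives were DESeq2 1.42.0, limma-trend (limma 3.58.1), other scalings and filters, thinned counts, the compared populations alone, a replicate block and left-out libraries.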

Additional observations from a re-analysis of the deposited data

How the results depend on the processing

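Of the 26 member calls in the 6 comparisons, 17 were kept under all 24 alternatives and 9 were lost under 1 or more, 4 of them calls of Sdc3 and 2 of Gpc1. RLE size factors, thinned counts and the looser filter kept all 26 calls. Between Itga8+ MSCs and Itga8-Alcam+ BLCs the count of members called was 0, and it was 1 with DESeq2, limma-trend or a filter of 10 counts in 3 libraries, 0 to 1 when each library was left out in turn, and 2 without both libraries 2 (Sdc1 and Sdc3). It was 3 to 6 between Itga8+ and Sca-1+ MSCs when single libraries were left out, and between Itga8+ and CD51+CD140a+ MSCs 3 with limma-trend and 3 to 5 when single libraries were left out. Directions changed only for differences that were not called. Between the Alcam+ populations, the log2 fold change of Sdc3 became -0.38 with limma-trend, -0.088 with a replicate block, -1.47, -0.15 and -0.43 without Itga8+ library 3, Itga8-Alcam+ library 1 and Itga8-Alcam+ library 3 (-1.47 to 1.22 when each library was left out), that of Gpc6 became -0.08, -0.20 and -0.24 without Itga8+ library 1, Itga8+ library 3 and Itga8-Alcam+ library 3 (-0.24 to 0.55), and those of Gpc1 and Sdc2 became 0.15 and -0.03 without both libraries 2. Between Itga8+ and Sca-1+ MSCs, Gpc4 became 0.056 without Itga8+ library 2 (-0.54 to 0.056) and 0.10 without both libraries 2 or without Itga8+ library 2 and Itga8-Alcam+ library 3, where Sdc1 became 0.031 and 0.032. Sdc4 between Sca-1+ and CD51+CD140a+ MSCs became -0.10 with library totals alone and -0.013 without Sca-1+ library 2 (-0.013 to 0.16). The cause was not tested. Library totals alone moved the all-gene median (log2) between Itga8-Alcam+ BLCs and CD51+CD140a+ MSCs from 0.0909 to -0.237, with 4 member calls gained and 1 lost (Gpc3 between these populations) over the 6 comparisons, and the calls higher and lower over all genes became 2934 and 4090 (3808 and 2770 with TMM), against Sca-1+ MSCs 2171 and 2929 (2706 and 2224), and for Itga8+ MSCs against Itga8-Alcam+ BLCs 495 and 313 (310 and 402). The last pair was 596 and 606 with DESeq2, 107 and 169 in a fit of these populations alone, 188 and 245 with a replicate block, 199 and 265 at an adjusted p under 0.05, 265 and 259 without Itga8+ library 1, 203 and 361 without Itga8-Alcam+ library 1, 197 and 236 without Itga8-Alcam+ library 3 and 1787 and 1163 without both libraries 2. Between Itga8+ and Sca-1+ MSCs it was 2397 and 1658, and 1514 and 1128, 1358 and 1028, and 1376 and 1116 without Sca-1+ library 1, 2 and 3, but 3110 and 2768 without Itga8+ library 3, and it was 1588 and 1314 in a fit of these populations alone and 1578 and 1128 at an adjusted p under 0.05. Without both libraries 2, Itga8-Alcam+ BLCs against Sca-1+ MSCs gave 3448 and 3585. The share of Gpc4 in the glypican sum of CD51+CD140a+ MSCs was 41.3% with the longest transcript as length and 31.3% without length.

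The replicate numbers were checked for pairing through the correlation of deviations from the group means. It was 0.399, -0.783 and -0.71 for numbers 1, 2 and 3 between the Alcam+ populations, and in no comparison were all 3 above 0.1. All 3 were positive between the Sca-1+ and Itga8-Alcam+ libraries (0.0921, 0.303 and 0.321). The same held between the CD51+CD140a+ and Itga8+ libraries (0.0101, 0.358 and 0.353), and every other comparison held a negative value. Libraries within both Alcam+ populations also differ in long-transcript content, which enters these deviations. The check therefore cannot decide whether libraries with the same number were paired. With a replicate block 22 of the 26 calls were kept and 4 were lost (Gpc1 in Itga8+ MSCs against Sca-1+ and CD51+CD140a+ MSCs, and Sdc3 in both Alcam+ populations against Sca-1+ MSCs), with 0, 4, 4, 5, 5 and 4 members called in the order Itga8+ against Itga8-Alcam+, Sca-1+ and CD51+CD140a+, Itga8-Alcam+ against Sca-1+ and CD51+CD140a+, and Sca-1+ against CD51+CD140a+.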
